A study of Rattus norvegicus with 30 samples.

Results

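The genes followed here carry lipoproteins, take them up, store their lipid and export cholesterol: Apoe, Vldlr, Scarb1, Cd36, Lpl, Plin2, Abca1, Abcg1 and Nr1h3. They were chosen by name, through the Entrez identifiers of the deposited expression table, and all 9 were found among its 17322 genes. Expression was measured by bulk RNA sequencing in testes of Wistar Han rats at 6 in vivo ages, namely 8.5 days post-partum (dpp), 14.5 dpp, 24.5 dpp, 30.5 dpp, 36.5 dpp and 53.5 dpp, and in testicular explants taken at 8.5 dpp and kept for 6, 16, 22 or 28 days in culture (D6, D16, D22 and D28). Explants lay on agarose at the interphase of gas and αMEM medium that held serum replacement, retinol and vitamin E, and their necrotic centre was removed before RNA extraction. Each in vivo library came from a different testis, and each cultured library pooled 12 explants from several males, with 3 libraries per group except at 14.5 dpp, where 2 were usable. No group carried a transgene or a drug. In age since birth, D6 matches 14.5 dpp, D16 matches 24.5 dpp, D22 matches 30.5 dpp and D28 matches 36.5 dpp.

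Lipoproteins carry cholesterol and fat through body fluids, and their apolipoproteins are the ligands by which cells recognise them. Receptors take up the particles or their lipid, lipases free fatty acids at the cell surface, perilipins coat the droplets in which the lipid is stored, and ABC transporters return cholesterol to extracellular acceptors. The liver X receptors (LXR) are nuclear receptors that sense oxidised sterols and raise the transcription of Abca1, Abcg1, Apoe and other export genes. In the testis, Leydig cells draw on lipoprotein cholesterol for androgen synthesis, Sertoli cells engulf residual bodies and dying germ cells and keep the lipid in droplets, and macrophages handle cholesterol in the interstitium.

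The DNA just before the start of a few of these genes is shown because they are known targets of lipid-sensing receptors. The sequences are the 250 bases before the transcription start, from RefSeq on build GRCr8, whereas the expression values rest on rn6. Windows were matched for 6 of the 9 genes. They were searched on both strands for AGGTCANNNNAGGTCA, the direct repeat that LXR recognises, and AGGTCANAGGTCA, that of the peroxisome proliferator-activated receptors, with up to 3 of the 12 defined letters different, and for ACGTG, the core of the hypoxia response element, without a difference. Capitals mark the matches, and the palindrome CACGTG, known as the E-box, holds ACGTG on both strands. The lines give Abca1 (chr5:72596474-72596723, minus strand), Plin2 (chr5:106229019-106229268, minus strand, the outer of its 2 windows) and Vldlr (chr1:234240436-234240685, plus strand), each from 5′ to 3′.
Abca1: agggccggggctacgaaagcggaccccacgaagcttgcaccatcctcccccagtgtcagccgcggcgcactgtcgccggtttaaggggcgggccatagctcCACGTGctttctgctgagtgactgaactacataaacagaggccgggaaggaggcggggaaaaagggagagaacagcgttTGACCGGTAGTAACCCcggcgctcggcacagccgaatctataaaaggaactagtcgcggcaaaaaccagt
Plin2: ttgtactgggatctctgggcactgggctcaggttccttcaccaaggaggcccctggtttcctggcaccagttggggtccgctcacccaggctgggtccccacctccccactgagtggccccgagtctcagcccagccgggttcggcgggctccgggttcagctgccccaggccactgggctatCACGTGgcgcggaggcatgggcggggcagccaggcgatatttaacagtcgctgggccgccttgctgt
Vldlr: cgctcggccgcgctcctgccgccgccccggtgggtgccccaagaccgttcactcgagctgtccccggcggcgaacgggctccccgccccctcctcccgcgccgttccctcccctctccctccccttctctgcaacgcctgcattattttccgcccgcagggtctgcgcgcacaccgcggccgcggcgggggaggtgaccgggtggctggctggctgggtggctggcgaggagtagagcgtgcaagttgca

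In the Abca1 window, a match to the LXR-type repeat lies 70 to 55 bases before the start, on the opposite strand and with 3 letters different. The E-box lies 149 to 144 bases before it. No window of Apoe, Vldlr, Nr1h3, Cd36 or Plin2 held a match to that repeat. A match to that repeat was held by 18.6% of the 33469 promoter windows of this length in the RefSeq table, and a match to ACGTG by 16.6%. Matches to the repeat of the peroxisome proliferator-activated receptors lay in an Apoe window, 137 to 125 and 109 to 97 bases before the start. Both had 3 letters different, and 21.4% of all windows held such a match. ACGTG also lay in another Apoe window and in the Cd36 window. The Plin2 window held the E-box 67 to 62 bases before the start, and the E-box itself was held by 5.59% of all windows. The Vldlr window, with 73.6% of its bases G or C, held none of the 3 motifs. A match is a string of letters in this window and was not tested as a binding site.

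Values are FPKM, a measure of reads scaled by transcript length and by the total of the library, so levels can be set side by side between genes. Absolute depth was unknown, and depth relative to the median library was estimated at 0.818 to 1.495. This estimate is rough: the lowest value, for 36.5 dpp replicate 3, rests on 7 of 183 low genes compared. The third 14.5 dpp library was listed at 0 for all genes and was left out, and the other 2 differed from each other in the summed FPKM of spermatocyte markers (8.27 and 48.4). The Sertoli cell markers Sox9, Wt1 and Gata4 were above 0 in all 29 libraries, so the labelled tissue held its defining somatic cell type throughout. In these bulk samples, fewer cells of a type and less RNA per cell cannot be told apart. Libraries of a group came from different testes or, in culture, from different pools of males, and the p-values measure the spread between these libraries.

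Over the whole time course the genes fell into 3 kinds of profile. Apoe, Scarb1, Lpl, Plin2, Abca1 and Abcg1 were at their lowest in testes of 53.5 dpp, and their mean level in culture was above that at 14.5 dpp at each of the 4 times, whether or not the difference passed the test. Vldlr was low in testes up to 24.5 dpp and high from 30.5 dpp, and was already high at D6. Cd36 and Nr1h3 did not exceed 2.44 FPKM in any library.

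**Figure D1:**
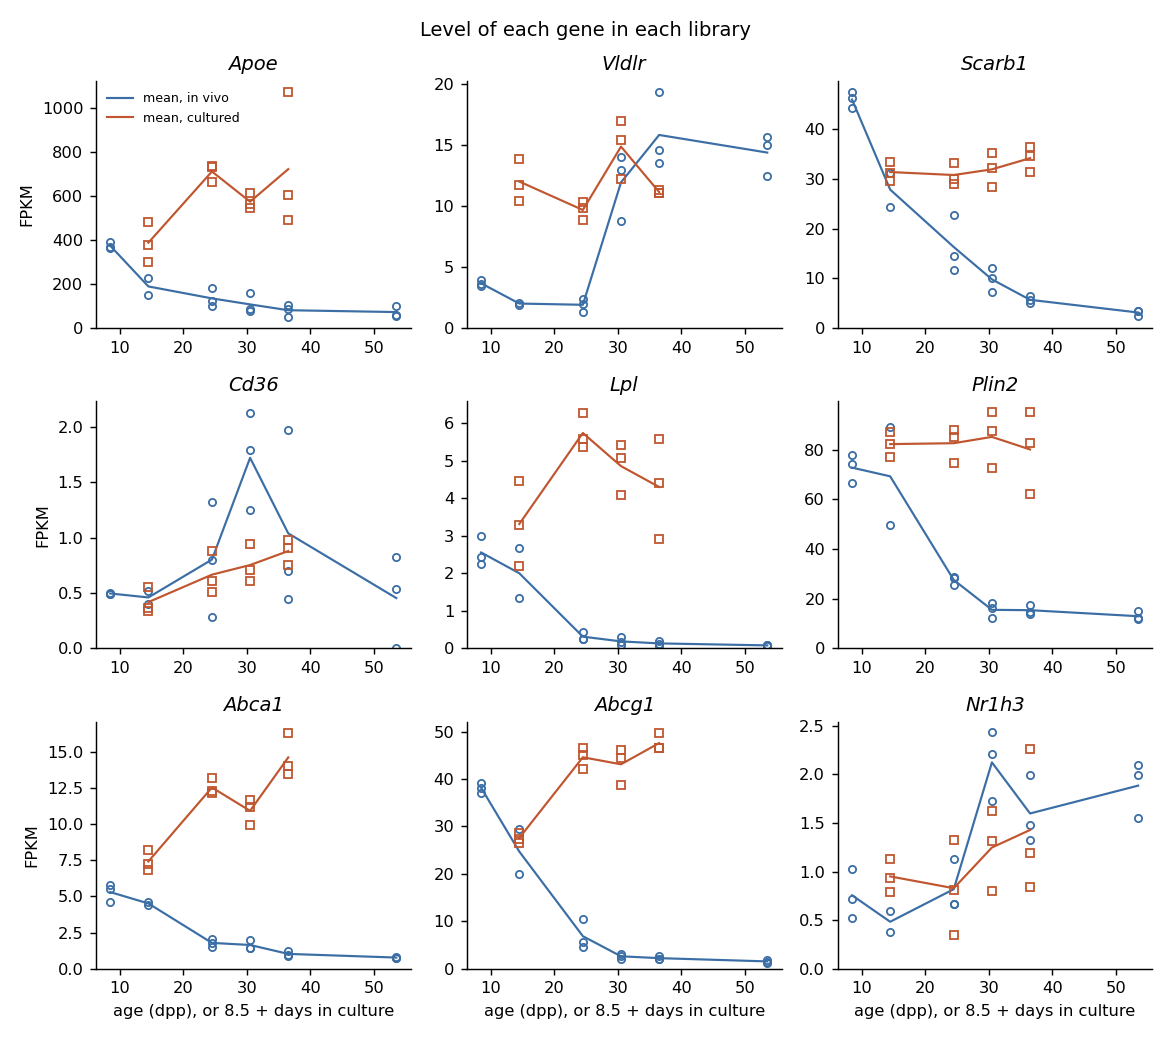
FPKM of each of the 9 genes (vertical axes, linear from 0, 1 panel per gene) against age in dpp or, for cultured tissues, 8.5 plus the days in culture. Open circles are in vivo libraries, open squares cultured libraries and lines join group means. For Abca1 all 12 cultured libraries lie above all 17 in vivo libraries, while for Nr1h3 the 2 sets overlap throughout.

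Apoe encodes apolipoprotein E, a ligand of lipoprotein receptors that is made by macrophages and several other cell types. It was the most abundant of the 9 genes in every group. In vivo its FPKM was 363, 369 and 389.5 in the libraries at 8.5 dpp, 227 and 149.6 at 14.5 dpp, and 181, 97.8 and 124 at 24.5 dpp. It was 84.3, 77.6 and 159 at 30.5 dpp, 106, 86.2 and 49.5 at 36.5 dpp, and 60.9, 55.1 and 100.4 at 53.5 dpp. The 8.5 dpp libraries lay above all later in vivo libraries, and from 14.5 dpp on each group overlapped the next in order of level. In culture, Apoe was at 378, 300.3 and 483 FPKM at D6, 729.9, 737 and 665 at D16, 614, 543 and 563 at D22, and 1071, 491 and 602 at D28. Every library from D16 on exceeded every in vivo library, and the D6 libraries overlapped those of 8.5 dpp. At D28, Apoe was higher than at 14.5 dpp by 1.88 ± 0.28 (SE) on the log2 scale, with a ratio of medians of 3.19 and an adjusted p of 0.00255 in the F test over D16, D22 and D28. Against the age-matched 36.5 dpp testes, the difference was 3.13 ± 0.36 and the adjusted p 9.9e-05. The D28 library at 1071 FPKM was far above the other 2, and the SD of that group was 307 around a mean of 721 FPKM. Apoe was called in both comparisons without that library as well.

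Vldlr encodes the very low density lipoprotein receptor, which binds particles rich in apolipoprotein E and also takes part in triglyceride uptake. Its in vivo FPKM was 3.91, 3.65 and 3.44 at 8.5 dpp, 1.92 and 2.08 at 14.5 dpp, and 2.38, 1.97 and 1.35 at 24.5 dpp. It was 8.81, 14.0 and 13.0 at 30.5 dpp, 13.6, 14.6 and 19.4 at 36.5 dpp, and 15.7, 12.5 and 15.0 at 53.5 dpp. The older libraries thus lay clear of the younger ones, and the step from 24.5 to 30.5 dpp was a rise of 2.15 ± 0.17 on the log2 scale (adjusted p = 1.97e-07). The cultured libraries held 11.8, 13.9 and 10.4 FPKM at D6, 9.84, 8.85 and 10.4 at D16, 17, 15.4 and 12.2 at D22, and 11.3, 11.1 and 11.1 at D28. All 12 lay above every library of 8.5, 14.5 and 24.5 dpp. At D6 it was higher than in the tissue of origin at 8.5 dpp by 1.47 ± 0.11 (adjusted p = 0.000117). It was higher at D28 than at 14.5 dpp by 2.02 ± 0.13, with a ratio of medians of 5.53 (adjusted p = 2.78e-05, F test). Against 30.5 and 36.5 dpp, where the in vivo level was high too, it was not called. At D28 it was lower than at 36.5 dpp by 0.46 ± 0.14 (adjusted p = 0.0177), with a ratio of medians of 0.759, short of the 2-fold that a call required.

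Scarb1 encodes SR-B1, the HDL receptor, which serves selective uptake of cholesterol esters and, on Sertoli cells, recognition of dying germ cells. Its FPKM was highest in the youngest testes, at 47.5, 46.3 and 44.3 at 8.5 dpp, 24.4 and 31.3 at 14.5 dpp, and 22.8, 14.4 and 11.7 at 24.5 dpp. It went on to 12.0, 10.1 and 7.22 at 30.5 dpp, 5.57, 6.42 and 5.01 at 36.5 dpp, and 2.40, 3.48 and 3.45 at 53.5 dpp. The group means descended with age without exception, and of the neighbouring ages 24.5 and 30.5 dpp alone overlapped. No in vivo step reached the ratio of medians of 2, although the adjusted p lay between 0.0113 and 0.0289 in each of the 5 steps. The step from 14.5 to 24.5 dpp reached 2-fold after quantile normalization (-0.93, adjusted p = 0.00574), without the lower 14.5 dpp library (-0.95, adjusted p = 0.0194) and without the highest 24.5 dpp library (-1.04, adjusted p = 0.000921). In culture the level varied little, with a lowest library of 28.4, a median of 31.9 and a highest of 36.5 FPKM over the 12 libraries. Those values lay below every 8.5 dpp library, overlapped 14.5 dpp and lay above all testes of 24.5 dpp and older. Scarb1 was not called against 14.5 dpp (D28 higher by 0.29 ± 0.13, adjusted p = 0.338, F test) and was higher at D28 than at 36.5 dpp by 2.40 ± 0.12 (adjusted p = 1.07e-06).

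Cd36 encodes a scavenger receptor that takes up oxidised lipoproteins and long-chain fatty acids. Its FPKM in vivo was 0.489, 0.504 and 0.494 at 8.5 dpp, 0.398 and 0.521 at 14.5 dpp, and 1.32, 0.801 and 0.282 at 24.5 dpp. It was 2.12, 1.25 and 1.79 at 30.5 dpp, 1.97, 0.447 and 0.698 at 36.5 dpp, and 0.828, 0.534 and 0 at 53.5 dpp. The libraries of 30.5 dpp stood highest as a group, and those of 24.5, 36.5 and 53.5 dpp were widely scattered. The cultured libraries ranged from 0.338 at D6 to 0.976 at D28. Among the comparisons of cultured with in vivo tissues, Cd36 was called in that of D22 with 30.5 dpp, where it was lower by 0.63 ± 0.15 (adjusted p = 0.00518). Its medians at 8.5 dpp, 14.5 dpp and D6 stayed below the 0.5 FPKM that a test required, so that it was not tested in the D6 comparisons.

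Lpl encodes lipoprotein lipase, which hydrolyses the triglycerides of circulating particles. Its FPKM was 3.00, 2.43 and 2.24 at 8.5 dpp and 2.67 and 1.34 at 14.5 dpp, and then 0.445, 0.251 and 0.241 at 24.5 dpp. Later libraries held 0.172, 0.0936 and 0.292 at 30.5 dpp, 0.129, 0.194 and 0.0728 at 36.5 dpp, and 0.0878, 0.0674 and 0.0828 at 53.5 dpp. The fall from 14.5 to 24.5 dpp was 1.16 ± 0.16 on the log2(FPKM + 1) scale (adjusted p = 2.15e-05), and no library after 14.5 dpp reached 0.5 FPKM. Cultured tissues were at 4.47, 3.28 and 2.19 FPKM at D6, 5.59, 6.27 and 5.37 at D16, 5.42, 5.08 and 4.09 at D22, and 5.59, 4.41 and 2.92 at D28. From D16 on, all but the lowest D28 library exceeded every in vivo library. Against 36.5 dpp the ratio of medians was 34.1 at D28, the highest of the 9 genes, with a difference of 2.20 ± 0.19 and an adjusted p of 1.88e-05. That ratio rests on a median of 0.129 FPKM at 36.5 dpp. With medians under 0.5 FPKM from 24.5 dpp on, Lpl entered the comparisons with age-matched testes through the cultured groups alone, D6 apart. Against 14.5 dpp the gene was called in all 3 later comparisons, by 0.82 ± 0.23 at D28 with a ratio of medians of 2.20 (adjusted p = 0.0153, F test). That call rested on the lower 14.5 dpp library: without it, Lpl was not called at D16, D22 or D28, and the D28 difference was 0.50 (adjusted p = 0.17). Without the highest D28 library it was 0.65 (adjusted p = 0.0503), and the D28 call was lost as well.

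Plin2 encodes perilipin 2, the coat protein of lipid droplets outside fat tissue. It was at 74.1, 66.5 and 77.9 FPKM at 8.5 dpp, 89.1 and 49.6 at 14.5 dpp, and 28.5, 25.5 and 28.7 at 24.5 dpp. It was 18.2, 12.3 and 16.1 at 30.5 dpp, 17.5, 13.9 and 14.7 at 36.5 dpp, and 11.9, 12.1 and 14.9 at 53.5 dpp. The fall between 14.5 and 24.5 dpp was 1.24 ± 0.21 on the log2 scale (adjusted p = 0.000137), and it kept an adjusted p of at most 0.00353 but lost the 2-fold ratio without the higher 14.5 dpp library. The cultured libraries held 87.4, 82.3 and 77.2 FPKM at D6, 74.9, 85.3 and 87.9 at D16, 72.8, 95.1 and 87.7 at D22, and 62.3, 95.3 and 82.9 at D28. The 4 culture times overlapped each other and both young in vivo ages, and no cultured library came near those of 24.5 dpp and older. At D28, Plin2 differed from 14.5 dpp by 0.24 ± 0.25 (adjusted p = 0.627, F test) and was higher than at 36.5 dpp by 2.29 ± 0.18 (adjusted p = 9.74e-06).

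Abca1 encodes the transporter that loads cholesterol and phospholipid onto lipid-poor apolipoprotein A-I. Its promoter window above holds a match to the LXR-type repeat with 3 letters different, as do 18.6% of all windows. In vivo it was at 5.52, 5.77 and 4.60 FPKM at 8.5 dpp, 4.41 and 4.62 at 14.5 dpp, and 2.03, 1.53 and 1.80 at 24.5 dpp. It was 1.47, 1.46 and 2.01 at 30.5 dpp, 1.26, 0.918 and 0.910 at 36.5 dpp, and 0.770, 0.774 and 0.781 at 53.5 dpp. In culture, Abca1 was at 7.25, 8.17 and 6.81 FPKM at D6, 13.1, 12.3 and 12.1 at D16, 9.92, 11.6 and 11.2 at D22, and 14.0, 13.5 and 16.3 at D28. Every cultured library lay above every in vivo library, which held for no other of the 9 genes. The D6 libraries lay below those of D16, D22 and D28. At D28, the gene was higher than at 14.5 dpp by 1.496 ± 0.11, with a ratio of medians of 3.11 (adjusted p = 8.51e-05, F test), and higher than at 36.5 dpp by 2.94 ± 0.12, with a ratio of 15.3 (adjusted p = 4.32e-07). At D6, the difference from 8.5 dpp was 0.42 ± 0.11 (adjusted p = 0.0168) and that from 14.5 dpp 0.61 ± 0.13 (adjusted p = 0.0301), both below the 2-fold ratio.

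Abcg1 encodes the transporter that passes cholesterol on to mature HDL particles. It was at 38.1, 39.3 and 37.2 FPKM at 8.5 dpp, 29.4 and 20.03 at 14.5 dpp, and 5.68, 4.49 and 10.5 at 24.5 dpp. It was 2.78, 1.98 and 3.14 at 30.5 dpp, 2.09, 2.62 and 2.02 at 36.5 dpp, and 1.28, 1.49 and 1.89 at 53.5 dpp. It fell from 14.5 to 24.5 dpp by 1.76 ± 0.25 (adjusted p = 3.37e-05) and from 24.5 to 30.5 dpp by 1.06 ± 0.22 (adjusted p = 0.000732), the latter with a ratio of medians of 0.489 that did not reach 2-fold without the highest 24.5 dpp library or without the lowest 30.5 dpp library. In culture it was at 27.4, 28.7 and 26.6 FPKM at D6, 42.0, 45.1 and 46.6 at D16, 46.1, 44.4 and 38.8 at D22, and 49.6, 46.5 and 46.6 at D28. The D6 libraries lay below all those of 8.5 dpp and within the spread of 14.5 dpp, and those of later culture times lay above D6. Of the latter, 8 exceeded every 8.5 dpp library. Against 14.5 dpp, the adjusted p of the F test was 0.00397, but the ratio of medians was 1.83, 1.80 and 1.89 at D16, D22 and D28, and Abcg1 was not called. It was called in all 3 comparisons without the higher 14.5 dpp library. Against 36.5 dpp, D28 was higher by 3.91 ± 0.11, the largest difference of the 9 genes, with a ratio of medians of 22.3 (adjusted p = 6.47e-08).

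Nr1h3 encodes LXRα, the sterol-sensing receptor that acts on the export genes above. Its in vivo FPKM was 1.03, 0.722 and 0.521 at 8.5 dpp, 0.374 and 0.594 at 14.5 dpp, and 0.671, 1.13 and 0.662 at 24.5 dpp. It was 1.73, 2.21 and 2.44 at 30.5 dpp, 1.32, 1.48 and 1.99 at 36.5 dpp, and 2.00, 2.10 and 1.56 at 53.5 dpp. The 30.5 dpp libraries lay above all younger ones, a rise of 0.78 ± 0.15 from 24.5 dpp (adjusted p = 0.000262). Cultured libraries were scattered, with 1.13, 0.930 and 0.793 FPKM at D6, 1.32, 0.349 and 0.815 at D16, 1.63, 0.8004 and 1.32 at D22, and 2.26, 1.19 and 0.841 at D28. Cultured and in vivo libraries overlapped over nearly the whole range, and Nr1h3 was not called in any comparison of cultured with in vivo tissues. The ratio of medians to 14.5 dpp was 2.45 at D28, with a difference of 0.67 ± 0.28 (adjusted p = 0.206, F test). Against 30.5 dpp it was lower at D22 by 0.49 ± 0.16 (adjusted p = 0.0269) with a ratio of medians of 0.596, which reached 2-fold without the highest D22 library or after quantile normalization.

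The comparison of cultured tissues with prepubertal testes of 14.5 dpp asks how explants stand against prepubertal tissue while their own age goes on. Of the 9 genes, 4 were called at D16, 4 at D22 and 4 at D28, all higher in culture: Apoe, Vldlr, Lpl and Abca1 each time. Over all genes tested, 11.9%, 12.9% and 13.6% were called in these comparisons, and 6.56%, 7.34% and 7.64% were called as higher. The 3 comparisons share the 14.5 dpp libraries and are not independent of each other. Apoe, Vldlr and Abca1 had been reported by the study as up-regulated in culture from these same libraries, so their calls are no independent support. The median log2 difference at D28 was 0.82 over the 9 genes and -0.08 over all genes tested.

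At D6, 8 of the 9 genes passed the filter on low values. Against 14.5 dpp, 2 of them were called, Apoe and Vldlr, both higher, where 7.94% of all genes tested were called and 5.57% were called as higher. The D6 call of Apoe (1.04 ± 0.26, adjusted p = 0.0467) was lost when any 1 of the 5 libraries was left out, with adjusted p-values between 0.0557 and 0.182, whereas Vldlr was called under all alternatives. Against the starting tissue of 8.5 dpp, 1 was called, Vldlr, where 16.3% of all genes were called and 9.89% as higher. Scarb1 and Abcg1 differed from 8.5 dpp in the opposite direction, lower by 0.54 ± 0.08 and 0.46 ± 0.08 (adjusted p = 0.00194 and 0.00291), with ratios of medians of 0.673 and 0.721 that fell short of a call.

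The age-matched testes differ from the explants in cell content as well, and most of the 9 genes were called against them. The summed FPKM of the 4 spermatid markers reached 4134 in testes of 36.5 dpp and at most 6.41 in culture, and its part in these differences was not tested. At D16 against 24.5 dpp, 7 of 9 were called and all were higher, against 43.6% of all genes tested, 25.3% as higher. The 2 that were not called were Cd36 and Nr1h3. The Scarb1 call in this comparison (0.93 ± 0.23, ratio of medians 2.08) fell short of 2-fold when either of the 2 lower 24.5 dpp libraries was left out. At D22 against 30.5 dpp, 7 of 9 were called, 6 of them higher and Cd36 lower, against 65% of all genes, 42.1% as higher. At D28 against 36.5 dpp, 6 of 9 were called and all were higher (Apoe, Scarb1, Lpl, Plin2, Abca1 and Abcg1), against 70.3% of all genes, 46.7% as higher. At D16, D22 and D28 alike, Lpl passed the filter on low values through the cultured group alone. The median log2 difference in the last comparison was 2.29 over the 9 genes and 0.64 over all genes tested.

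**Figure D2:**
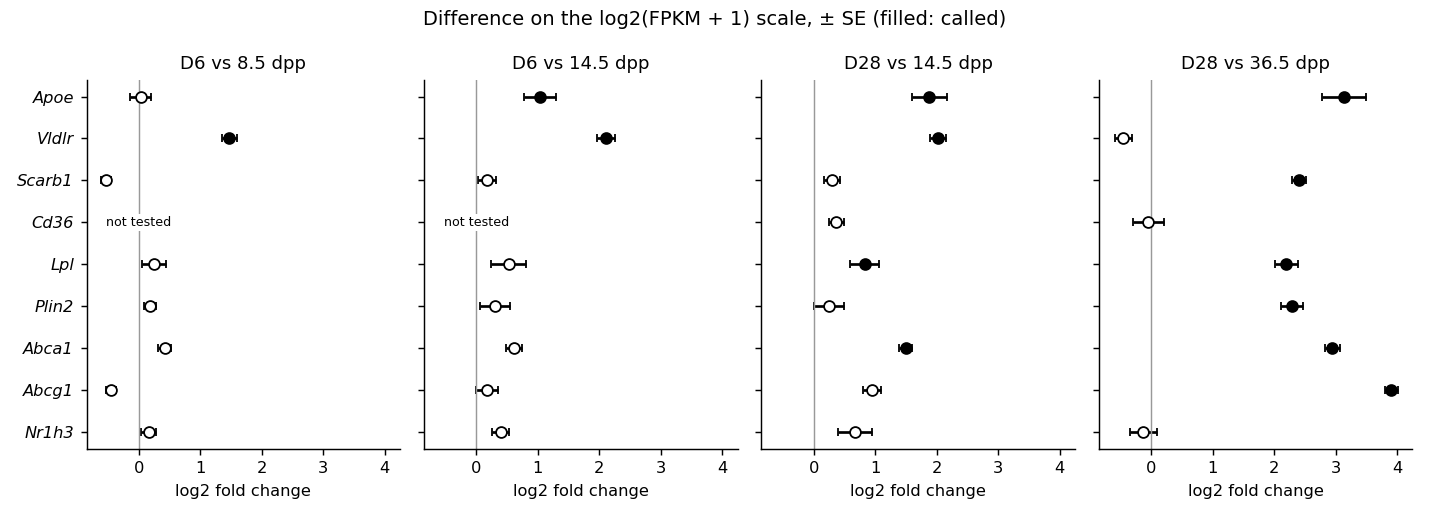
Difference of each gene (rows) in 4 comparisons (panels), in log2 fold change of FPKM + 1 with bars of ± 1 SE; filled points were called and open points were not. Vldlr is the 1 gene called at D6 against both 8.5 and 14.5 dpp, and against 36.5 dpp the points for Apoe, Scarb1, Lpl, Plin2, Abca1 and Abcg1 lie above 2.

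In vivo, all 9 genes were called in the F test over the 6 ages, as were 90.2% of all genes tested. The call of Cd36 (adjusted p = 0.0395) was lost under several settings, with adjusted p-values up to 0.149. Between 8.5 and 14.5 dpp, 0 of 9 were called by limma, against 14.7% of all genes, and 4 had an unadjusted p under 0.05. Between 14.5 and 24.5 dpp, 4 of 9 were called and all were lower (Lpl, Plin2, Abca1 and Abcg1), against 35.6% of all genes, 21.4% as lower. Between 24.5 and 30.5 dpp, 3 of 9 were called, Vldlr and Nr1h3 higher and Abcg1 lower, against 37.6% of all genes. The Abcg1 call was also lost after quantile normalization (-0.79). Cd36, with a difference of 0.62 (adjusted p = 0.056), was called in this step under 7 of 25 alternatives, among them all groups in 1 fit (adjusted p = 0.018) and leaving out 24.5 dpp replicate 1, 30.5 dpp replicate 2, 36.5 dpp replicate 1 or 2, or 53.5 dpp replicate 3 (adjusted p = 0.0233 to 0.0468). Plin2 was called as lower in it without 30.5 dpp replicate 1 (-0.92). In the step to 36.5 dpp, 0 were called by limma, against 7.49% of all genes, and 3 had an unadjusted p under 0.05. In the step to 53.5 dpp, 0 were called by limma, against 6.54%, and 1 had an unadjusted p under 0.05, Scarb1.

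Within culture, 0 of 9 were called by limma between D6 and D16, where 3% of all genes were called, and 4 had an unadjusted p under 0.05. Of these, Abcg1 was higher at D16 by 0.67 ± 0.08 (adjusted p = 0.000766), Abca1 by 0.69 ± 0.10 (adjusted p = 0.00159) and Apoe by 0.90 ± 0.25 (adjusted p = 0.033), each with a ratio of medians below 2. Between D16 and D28, 0 were called by limma, where 0.828% of all genes were called, and none of the 9 had an unadjusted p under 0.05. 

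The period from D6 to D28 spans the same 22 days of age as that from 14.5 to 36.5 dpp, and the difference between both changes was tested. It passed the test for 7 of 9 genes, all but Cd36 and Nr1h3, against 76.5% of all genes tested. Abcg1 changed by 0.77 on the log2 scale in culture and by -2.97 in vivo, a difference of 3.73 ± 0.20 (adjusted p = 7.93e-08). Abca1 changed by 0.89 in culture and by -1.45 in vivo, a difference of 2.34 ± 0.16 (adjusted p = 5.5e-07). Vldlr went the other way, with -0.09 in culture and 2.47 in vivo, a difference of -2.56 ± 0.21 (adjusted p = 1.57e-06). Scarb1 and Plin2 changed by 0.12 and -0.06 in culture and by -2.11 and -2.05 in vivo.

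**Figure D3:**
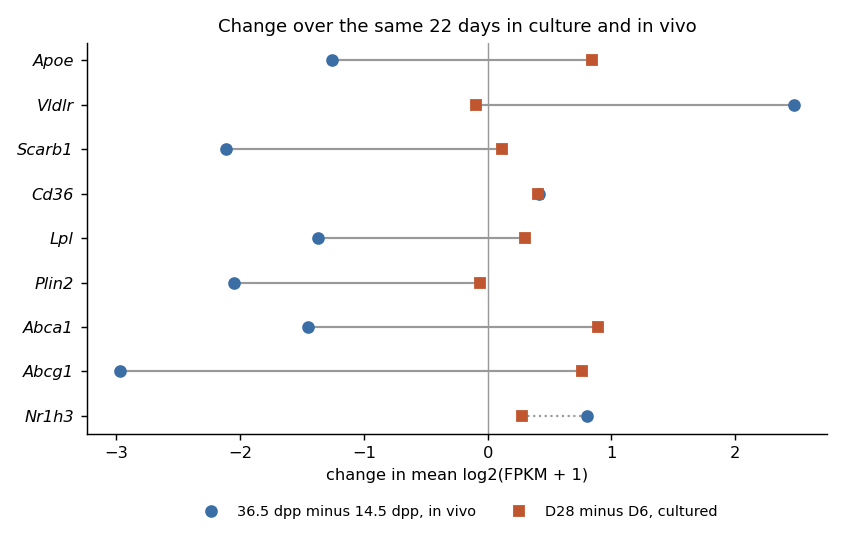
Change in mean log2(FPKM + 1) of each gene (rows) from 14.5 to 36.5 dpp in vivo (circles) and from D6 to D28 in culture (squares). Solid grey lines join pairs whose difference passed the test and dotted lines those that did not. In culture all 9 changes lie between -0.09 and 0.89, while in vivo they run from -2.97 for Abcg1 to 2.47 for Vldlr. In FPKM without the added 1, the in vivo ratio of means is lower for Lpl (0.0660) than for Abcg1 (0.0908).

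Marker lists of cell types were set beside these results, and they did not all move alike. The summed FPKM of the 6 macrophage markers was 14.8 to 25.7 in the in vivo libraries and 25.4 to 45.4 in the cultured ones. In vivo its median did not fall with age, at 19.7 for 8.5 dpp and 20.6 for 53.5 dpp. Within that list, Cd14 averaged 14.8 FPKM at D28 against 2.05 at 14.5 dpp and Cd68 8.31 against 2.71, while Cd163 was listed at 0 in all 12 cultured libraries and Mrc1 averaged 8.92 against 8.72. The 5 endothelial markers summed to 39.9 to 78.1 in culture, 25.5 to 48.4 at 8.5 and 14.5 dpp, and at most 11.8 in older testes. Of these, Pecam1 and Cdh5 averaged 23.6 and 25.0 FPKM at D28 against 10.3 and 13.7 at 14.5 dpp. Emcn was lower, at 0.654 against 2.16, and Tek and Vwf were at 1.40 against 1.59 and 0.481 against 0.484. The 6 Sertoli cell markers summed to 739 to 1066 in culture, to 959 and 992 at 14.5 dpp and to at most 178 from 30.5 dpp on. The 6 Leydig cell markers summed to 12.7 to 36.8 in culture and 66.3 to 595 in vivo, where their median was highest at 30.5 dpp, at 567. The 4 peritubular myoid markers summed to 68.2 to 334 in culture. Their median was 687 at 8.5 dpp, 388 at 14.5 dpp and 36.5 at 53.5 dpp. The 4 adipocyte markers, which include Plin1, summed to 1.52 to 3.71 in culture. In vivo their sum was 0.190 to 1.21 up to 24.5 dpp and 3.81 to 12.2 later. Within that list, Lep, which is specific to fat cells, averaged at most 0.0143 in each culture group. Plin1 averaged 3.30 FPKM at D16 and 1.73 at D28 against 0.994 at 14.5 dpp. Adipoq averaged 0.197 at D28 against 0.170, and Cidec 0.0330 against 0. The part of these cell types in the levels of the 9 genes was not tested.

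**Figure D4:**
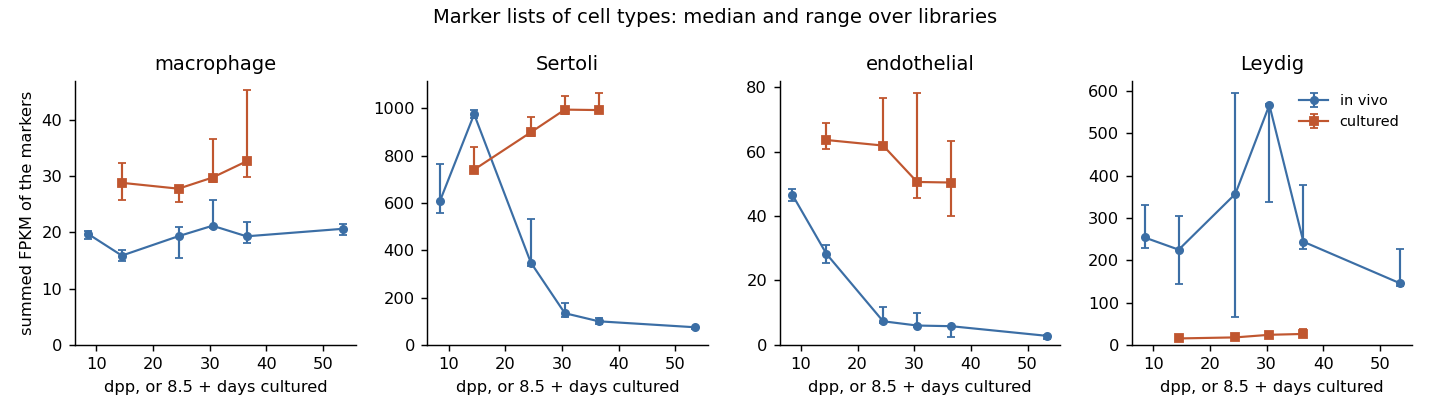
Summed FPKM of the markers of 4 cell types (vertical axes, linear from 0) against age in dpp or 8.5 plus the days in culture, as the median of the libraries with bars from the lowest to the highest library. Cultured tissues lie at 25.4 to 45.4 for macrophage markers and at 12.7 to 36.8 for Leydig cell markers, which reach 595 in vivo.

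Of 62 other genes of the pathway, listed by role, 58 were found, and 43 of these passed the filter in the comparisons with 14.5 dpp. At D28, 6 were higher, 4 were lower and 33 were not called against 14.5 dpp, where 13.6% of all genes were called and 7.64% as higher. Against 36.5 dpp, 26 were higher, 7 were lower and 11 were not called of 44 tested, where 70.3% of all genes were called and 46.7% as higher. Their median log2 difference was 0.24 against 14.5 dpp and 1.21 against 36.5 dpp, and that of all genes tested was -0.08 and 0.64. The counts by role below are for D28 unless another time is named and are to be read against these shares.

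Among apolipoproteins, 4 of 10 were expressed enough to be tested, and Apoa2 and Apoc1 were listed at 0 in all groups. Clu, the secreted chaperone clusterin, rose against 14.5 dpp from 710.4 ± 407 (SD) to 2999 ± 387 FPKM at D28, by 2.20 ± 0.29 (SE) on the log2 scale, and Apom, an HDL apolipoprotein, fell by 0.63 ± 0.13. Among the receptors and their regulators, 3 of 8 rose against 14.5 dpp at D28 and none fell. Mylip, a ubiquitin ligase induced by LXR that degrades lipoprotein receptors, rose from 6.65 ± 0.0967 to 18.9 ± 1.73 FPKM, and Olr1, a receptor of oxidised LDL, from 0.1004 ± 0.0230 to 1.25 ± 0.365. Olr1, below 0.5 FPKM at 14.5 dpp, entered that comparison through the cultured groups alone. Against 36.5 dpp, where 46.7% of all genes were higher, 7 of 9 rose, led by Mylip (3.17 ± 0.13) and by the endocytic receptor Lrp1 (2.99 ± 0.12), and 2 fell, among them Lrp2, by 0.41 ± 0.11.

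Among lipases and remodelling factors, 1 of 7 differed from 14.5 dpp, Lipe, the hormone-sensitive lipase, which fell by 0.80 ± 0.09. Against 36.5 dpp, 6 of 7 rose (46.7% of all genes), led by the lysosomal acid lipase Lipa (54.2 ± 7.51 against 3.26 ± 0.681 FPKM) and by the endothelial lipase Lipg (7.25 ± 3.36 against 1.07 ± 0.637), and Lipe fell. Among droplet and cholesterol ester genes, 0 of 7 were called by limma at D28 against 14.5 dpp, and 4 had an unadjusted p under 0.05. In each of the D6, D16 and D22 comparisons with 14.5 dpp, 1 was called as higher. Against 36.5 dpp, 4 rose, led by Soat1, which esterifies cholesterol, and Nceh1, which hydrolyses the esters. The 3 that fell include Dgat2, an enzyme of triglyceride synthesis (13.5 ± 1.49 against 84.6 ± 15.7 FPKM), and Cidec, a droplet protein of the adipocyte list too. Of the intracellular transport genes, Npc2, a lysosomal cholesterol carrier, rose against 14.5 dpp from 173 ± 14.9 to 389.6 ± 9.14 FPKM. Star, which moves cholesterol into mitochondria for steroid synthesis and belongs to the Leydig cell list too, fell by 1.35 ± 0.20. Against 36.5 dpp, 5 of 7 rose (46.7% of all genes), led by Tspo and Npc2.

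Of the other export transporters, Abca5 fell in both comparisons, from 1.08 ± 0.271 to 0.475 ± 0.0935 FPKM against 14.5 dpp, and Abca7 was not called. Abcg4, Abcg5 and Abcg8 were too low to be tested. The nuclear receptors were not called at D28 against 14.5 dpp (0 of 6 by limma, with 2 at an unadjusted p under 0.05), and 1 was called as higher at D22. Nr1h2, which encodes the other liver X receptor, LXRβ, was at 53.1 ± 9.75 FPKM at D28, against 1.43 ± 0.739 for Nr1h3 on the same per-length scale. It differed from 14.5 dpp by 0.23 ± 0.13 and rose against 36.5 dpp by 2.03 ± 0.22. Ppard rose in the same comparison by 1.98 ± 0.12. Of 4 other known LXR targets, 2 rose against 14.5 dpp: Srebf1, a regulator of fatty acid synthesis, from 13.0 ± 0.701 to 43.6 ± 7.25 FPKM (1.65 ± 0.14), and Mylip. Pltp and Lpcat3, with differences of 0.42 ± 0.26 and 0.49 ± 0.11, were not called in that comparison.

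**Figure D5:**
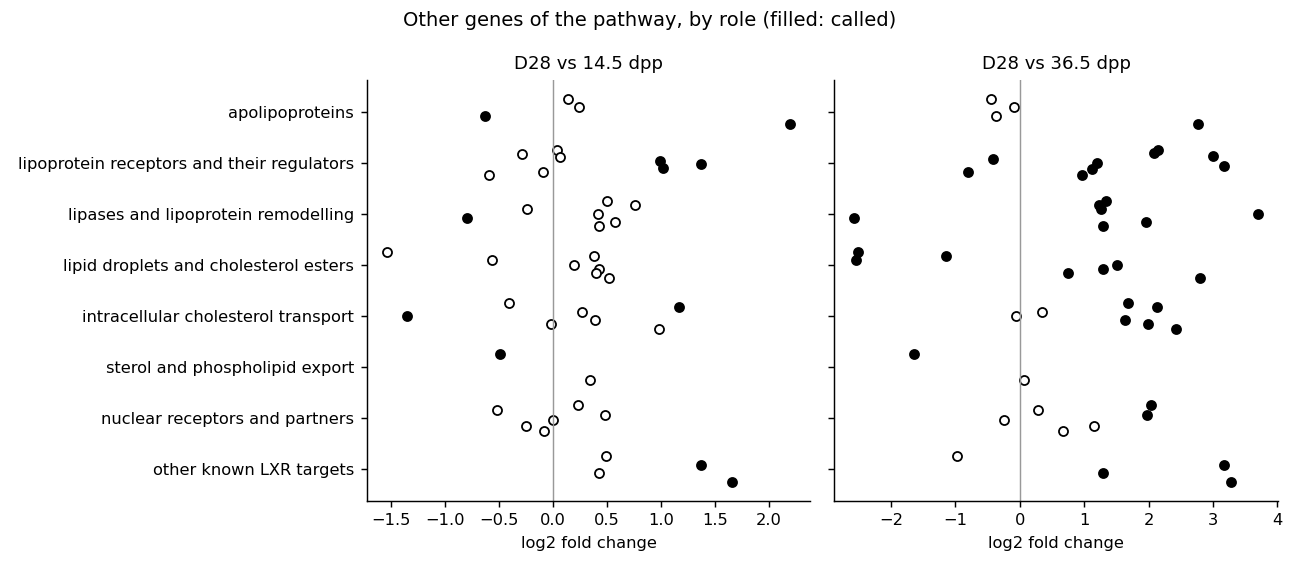
Log2 fold change of FPKM + 1 of the other genes of the pathway that were tested, in rows by role, for D28 against 14.5 dpp (left) and against 36.5 dpp (right, on its own scale); filled points were called and open points were not. Mylip and Pltp appear in 2 roles. In the left panel Clu lies farthest to the right at 2.20, and in the right panel Lipa does at 3.70.

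As a description of likeness, group means of log2(FPKM + 1) were correlated over the 10 groups, which share libraries and tissue composition, with 12085 expressed genes. The genes most like Abca1 were Vsir, Kdr and Rspo1 (Pearson's r = 0.991, 0.990 and 0.990), and among those most like Apoe were Id3 and Ctss (r = 0.992 and 0.989). Lpl was most like Mogat2, Rspo1 and Slc15a3, Scarb1 most like Ech1, Rbck1 and C19h1orf198, Plin2 most like St6galnac6, Rilp and Def8, and Abcg1 most like Tapbpl, Lrp5 and Pla2g15, all with r of at least 0.992. Vldlr was most like Extl1 (r = 0.986), with Tmem150c (r = 0.917) also among the 3 closest. Cd36 was most like Per3, Irx2 and Nfrkb (r = 0.947, 0.897 and 0.889), and Nr1h3 most like Dact2 and Cx3cr1 (r = 0.914 and 0.913). Among the 9 genes themselves, r was 0.987 between Apoe and Abca1, 0.991 between Plin2 and Abcg1, 0.749 between Vldlr and Nr1h3, and -0.445 between Abca1 and Nr1h3.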

How the data were processed

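RNA of rat testes and of cultured testicular explants was measured by stranded polyA RNA sequencing with single reads of 50 bases, per the study's methods. The authors demultiplexed with bcl2fastq 2.17.1.14, aligned reads to rn6 with STAR 2.5.2a and RefSeq annotation, and quantified genes with StringTie and Ballgown. The deposited values are FPKM per gene and library, which the study calls RPKM. Read counts were not used here. FPKM depends on the total of each library, so a few very abundant transcripts lower all others.

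Groups followed the sample labels. Of the 30 libraries, 1 at 14.5 dpp, called an outlier in its labels, held 0 for all genes and was left out. Relative depth was estimated from the steps between low values of a gene, and genes were named through RefSeq for 17172 of 17322 identifiers. Differences were tested with limma 3.58.1 in R 4.3.3 on log2(FPKM + 1), a scale that understates changes of low genes. Genes whose median stayed below 0.5 FPKM in all groups of a comparison were not tested in it. A call needed a Benjamini-Hochberg adjusted p no higher than 0.05 over all genes tested, together with medians that differed 2-fold or more in either direction. For D16, D22 and D28 against 14.5 dpp the adjusted p was that of the F test over the 4 groups. In the comparison of changes over 22 days the adjusted p decided alone, and in the F test over in vivo ages the 2-fold was that between the highest and lowest median. Values are given as mean ± SD and differences as estimate ± SE. The tests were tried on simulated data.

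The 9 genes were set by name, and the other lists and the rule for named pathway genes (up to 2 with the largest rise and 2 with the largest fall per role among those called) were chosen with earlier results of these data known. Alternatives were another pseudocount, other filters, quantile normalization, all groups in 1 fit, a trend in the prior variance, the replicate number as a block, the adjusted p alone and leaving out each library. The number of libraries limits the precision, and absolute depth is unknown. In promoter windows motifs were matched letter by letter on both strands. A few genes that the rules would name are not reported here.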

Additional observations from a re-analysis of the deposited data

Results flagged for a closer look

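The change from D6 to D28 differed from the change from 14.5 to 36.5 dpp in 7 of the 9 genes, by a test of the difference itself, a contrast of both changes in limma with p-values adjusted over all genes. The difference in log2(FPKM + 1), culture minus in vivo, was 3.73 for Abcg1, 2.34 for Abca1, 2.23 for Scarb1, 2.10 for Apoe, 1.99 for Plin2 and 1.67 for Lpl. This order depends on the scale, which understates changes of low genes, and the Lpl difference ran from 1.35 to 3.51 among the alternatives. For Vldlr it was -2.56, the 1 gene of the 7 whose change was larger in vivo in the upward direction. In the same contrast 76.5% of all genes tested passed, so that a difference of this kind does not set the 9 genes apart. For Cd36 and Nr1h3 the differences were -0.00 ± 0.33 and -0.53 ± 0.29 (SE), and the latter passed after quantile normalization (-0.86) and without the highest D28 library (-0.76).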

How the results depend on the processing

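The calls of Vldlr, Apoe and Abca1 at D16, D22 and D28 against 14.5 dpp held under all 20 alternatives. Counts of called genes that moved by over 1.5 times come first. Of the 9 genes, 1 was called at D6 against 14.5 dpp, in place of 2, with a pseudocount of 0.1, without a filter, after quantile normalization, with the replicate number as a block, and without any of its libraries. With the adjusted p alone, 4 were called at D6 against 8.5 dpp, 3 between 8.5 and 14.5 dpp, 5 between 24.5 and 30.5 dpp, 2 between 30.5 and 36.5 dpp, 1 between 36.5 and 53.5 dpp and 3 between D6 and D16. After quantile normalization 1 was called between D6 and D16. Without 1 library, 0 to 1 were called between 8.5 and 14.5 dpp (1, Apoe, without 14.5 dpp replicate 1), between 30.5 and 36.5 dpp (1, Cd36, without 36.5 dpp replicate 1) and between D6 and D16 (1, Lpl or Apoe, without D6 replicate 1 or 3). Smaller moves without 1 library were to 3 to 5 at D16, D22 and D28 against 14.5 dpp, 4 to 5 between 14.5 and 24.5 dpp, 2 to 4 between 24.5 and 30.5 dpp, 6 to 7 at D16 against 24.5 dpp, 7 to 8 at D22 against 30.5 dpp and in the comparison over 22 days, and 8 to 9 in the in vivo F test. With the adjusted p alone, Abcg1 was called too at D16, D22 and D28 against 14.5 dpp, Abca1 at D6 against 14.5 dpp, Vldlr (lower) at D28 against 36.5 dpp, Nr1h3 (lower) at D22 against 30.5 dpp and Scarb1 (lower) at 24.5 against 14.5 dpp. Without a 14.5 dpp library the remaining one was assumed to vary like the other groups.

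Of 2610 log2 differences recomputed, 2457 kept direction and side of the adjusted p threshold of 0.05, 75 lost that threshold, 33 gained it and 45 changed sign. The tally rests on the adjusted p of the single comparison and does not count lost or gained calls. The 27 results with a change of sign were not called, and their lowest adjusted p was 0.188. After quantile normalization, Vldlr was at 0.036 (24.5 against 14.5 dpp) and 0.14 (53.5 against 36.5 dpp), Plin2 at 0.10 (36.5 against 30.5 dpp) and 0.041 (53.5 against 36.5 dpp), and Abca1 at 0.030 (30.5 against 24.5 dpp) and 0.023 (53.5 against 36.5 dpp). With a pseudocount of 0.1, Cd36 was at 0.011 at D28 against 36.5 dpp and at 0.14 in the comparison of changes over 22 days. The causes were not tested. Without 1 library, log2 differences from 14.5 dpp ran from -0.11 to 0.72 for Plin2 at D16, -0.072 to 0.76 at D22, -0.17 to 0.66 at D28 and -0.11 to 0.72 at D6, from -0.090 to 0.44 for Abcg1 at D6 and from -0.025 to 0.32 for Scarb1 at D16. Against 8.5 dpp they ran from -0.15 to 0.19 for Apoe at D6 and, at 14.5 dpp, from -0.097 to 0.025 for Cd36, -0.60 to 0.052 for Lpl and -0.54 to 0.29 for Plin2. Later in vivo steps ran from -0.45 to 0.090 for Apoe and -0.22 to 0.025 for Vldlr (53.5 against 36.5 dpp), -0.15 to 0.11 for Plin2 (36.5 against 30.5 dpp) and -0.18 to 0.080 for Vldlr (24.5 against 14.5 dpp). Against the matched age they ran from -0.30 to 0.13 for Cd36 and -0.21 to 0.18 for Nr1h3 at D16, and from -0.26 to 0.26 and -0.36 to 0.047 at D28. Within culture they ran from -0.31 to 0.078 for Nr1h3, -0.040 to 0.074 for Plin2 and -0.083 to 0.016 for Scarb1 (D16 against D6), and from -0.38 to 0.18 for Apoe and -0.20 to 0.11 for Plin2 (D28 against D16). The Cd36 difference over 22 days ran from -0.22 to 0.30.

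No pairing by replicate number was found among groups other than 14.5 dpp by the rule used. In 0 of 36 pairs of these groups did all same-numbered libraries correlate above 0.1 in their deviations from the group means. Weaker positive correlations occurred, as between 30.5 and 53.5 dpp (0.065 to 0.148). The rule cannot show explants of the same males under different numbers. Pairs with 14.5 dpp were not checked. With the block, Cd36 was called between 24.5 and 30.5 dpp (adjusted p = 0.0241), Apoe was not called at D6 against 14.5 dpp, and 376 genes in place of 898 were called over all genes at D6 against 14.5 dpp. The reads behind low values are unknown, since the absolute depth is.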
